A study of Mus musculus with 24 samples.

Results

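The genes described here are 48 genes outside the Hox clusters that regulate development in the mouse, called homeobox genes below. They are 5 NK genes, 9 LIM homeodomain genes, 6 Pax genes, 3 sine oculis homologs (Six2, Six3 and Six6) and 8 Dlx and Msx genes. Also in the set are 6 genes of brain regions (Emx1, Emx2, En1, En2, Gbx2 and Gsx2), 4 Iroquois genes, 5 genes of mesenchyme and somites (Alx1, Alx4, Barx1, Meox1 and Meox2), and Pdx1 and Cdx1. The Pax genes are defined by a paired box, and among them Pax1 and Pax9 have no homeobox. The 48 genes were taken as a named set. All 48 were found among the 21523 genes with a gene end in the table and were among the 20320 gene ends tested. The methylation level of a gene was the share of methylated calls over all calls at CpGs within 1 kb of the gene end with more CpGs, in genome build mm10. This window will be called the gene end. The rule names the genes and sets no limit on their levels.

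The cells were mouse induced pluripotent stem (iPS) cells, sequenced over the whole genome after oxidative bisulfite treatment, which keeps 5-hydroxymethylcytosine from being read as 5-methylcytosine. Wild-type cells and 2 knock-in clones, N5 and N9, which carry miR-203 under doxycycline control, were sampled at t=0 (before doxycycline), at day 10 (5 days after a pulse of 5 days), at day 25 (20 days after it) and as embryoid bodies at day 32. Each stage had 1 wild-type library and 1 library per clone, so a clone value is a mean with the SD of 2 clones (n = 2). The p-values judge a change against the spread between the 2 clones within a stage. That spread was pooled over the stages, with information shared across all ends or flanks tested. The 1 wild-type library of a stage was taken to have the same spread. The design gives 7 days of embryoid body formation, whereas the wild-type label gives 10. Cells were grown over feeder cells in the stem cell stages, and embryoid bodies, aggregates in which pluripotent cells differentiate, were made as hanging drops. Doxycycline is named in the wild-type labels of day 10 and day 25. At the last stage it is named for both clones but not for the wild type. Whether wild-type cells had received it before forming embryoid bodies cannot be told from these labels. Bulk levels are means over all cells, so a change in a share of the cells and a smaller change in all of them cannot be told apart.

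Homeobox genes encode transcription factors that bind DNA through a homeodomain and set the identity of tissues and body regions. In pluripotent cells most of these genes are silent, and their CpG-rich promoters typically lie in broad regions of low DNA methylation bound by Polycomb group proteins, which place the repressive mark H3K27me3. Such regions are known in several settings to gain or lose DNA methylation when cells differentiate or are kept in culture.

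Libraries held from 102896335 to 191210205 calls, with a mean coverage per CpG from 4.70 to 8.74, and a gene end of the set had from 114 to 2638 calls in a library. Another flow cell than that of the remaining 9 libraries was used for N5 at t=0, day 25 and the embryoid body stage. Calls on mitochondrial DNA, which is largely unmethylated, gave levels from 0.156% to 0.649% per library and show the size of level that conversion and calling errors can leave. The clones had reads on chromosome Y: relative to chromosome 5 its coverage was 0.0370 (N5) and 0.0386 (N9) before doxycycline, 0.0122 and 0.0103 at day 25, and at most 0.0018 in every other library. Chromosome 8, which carries Irx3 and Irx5, had a coverage over chromosome 5 from 1.00 to 1.04 in the wild type and from 1.34 to 1.37 in 6 of the 8 clone libraries, with 1.10 in N5 at day 10 and 1.19 in N9 embryoid bodies as the lower ones. The gene ends of 20 fibroblast markers had a median methylation level of 35.5% (N5) and 24.3% (N9) at t=0, then 24.1% and 27.3% by day 25, while embryoid bodies had 49.9% and 50.5%. Those of 12 pluripotency markers stood at 12.5% and 10.6% at t=0, at 3.78% and 2.69% by day 25, then at 8.77% and 10.1% in embryoid bodies. Their wild-type median went the other way at the end, from 14.0% at t=0 and 12.95% at day 25 to 4.945% in embryoid bodies. At 5 of the 12 the clones' change from day 25 was higher than that of the wild type, against 6.07% of all ends (edgeR, adjusted p under 0.05). The 10 neural, 12 mesoderm and cardiac, and 12 endoderm marker ends each had a higher median in the embryoid bodies of both clones than at t=0. The median over all ends tested was higher too, going from 10.07% to 14.0% in N5 and from 10.09% to 12.84% in N9. These levels are methylation, not expression, and a part of admixed cells or of the chromosome 8 coverage in the results below was not tested.

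To show what these promoters look like, the 250 bases before the RefSeq start site of 8 genes are printed 5′ to 3′ on the strand of the gene, in lower case with every CpG in capitals (RefSeq, build GRCm38.p6). Nkx6-1 and Irx3 stand for the least methylated members, Pax5, Pdx1, Meox2 and Emx1 for those that rose in embryoid bodies, and Pax8 and Lhx3 for those with the highest levels.
Nkx6-1 (chr5:101664712-101664961, minus strand): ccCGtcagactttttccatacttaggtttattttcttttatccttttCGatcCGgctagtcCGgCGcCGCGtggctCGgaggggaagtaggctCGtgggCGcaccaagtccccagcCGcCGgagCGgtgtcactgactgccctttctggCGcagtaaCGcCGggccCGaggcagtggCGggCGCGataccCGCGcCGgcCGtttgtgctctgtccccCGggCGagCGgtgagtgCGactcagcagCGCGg
Irx3 (chr8:91801655-91801904, minus strand): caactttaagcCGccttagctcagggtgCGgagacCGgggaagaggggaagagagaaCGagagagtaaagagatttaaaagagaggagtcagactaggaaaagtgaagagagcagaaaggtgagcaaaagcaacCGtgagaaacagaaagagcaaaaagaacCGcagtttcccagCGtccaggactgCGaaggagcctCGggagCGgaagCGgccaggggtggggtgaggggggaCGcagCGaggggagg
Pax5 (chr4:44710695-44710944, minus strand): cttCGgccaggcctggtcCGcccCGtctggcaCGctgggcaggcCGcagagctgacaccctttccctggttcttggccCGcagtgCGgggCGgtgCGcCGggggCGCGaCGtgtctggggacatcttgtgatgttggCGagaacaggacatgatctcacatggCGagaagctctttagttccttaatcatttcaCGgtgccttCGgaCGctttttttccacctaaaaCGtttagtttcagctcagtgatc
Pdx1 (chr5:147269847-147270096, plus strand): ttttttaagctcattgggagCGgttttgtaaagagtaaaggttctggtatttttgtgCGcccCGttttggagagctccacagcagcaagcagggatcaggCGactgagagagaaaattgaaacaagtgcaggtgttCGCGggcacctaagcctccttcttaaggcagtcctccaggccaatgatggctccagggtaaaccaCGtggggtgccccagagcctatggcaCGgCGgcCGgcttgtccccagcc
Meox2 (chr12:37108290-37108539, plus strand): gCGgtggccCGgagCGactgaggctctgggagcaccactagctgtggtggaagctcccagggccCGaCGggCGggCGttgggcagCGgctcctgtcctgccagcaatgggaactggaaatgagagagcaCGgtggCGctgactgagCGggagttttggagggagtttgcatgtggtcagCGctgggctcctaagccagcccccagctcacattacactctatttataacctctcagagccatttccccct
Emx1 (chr6:85187681-85187930, plus strand): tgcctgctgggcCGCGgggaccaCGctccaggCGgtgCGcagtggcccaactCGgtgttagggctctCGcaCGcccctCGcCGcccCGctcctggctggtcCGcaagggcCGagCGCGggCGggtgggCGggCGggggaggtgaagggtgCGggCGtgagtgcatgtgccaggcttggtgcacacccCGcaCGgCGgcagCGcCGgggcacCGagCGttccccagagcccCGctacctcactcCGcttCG
Pax8 (chr2:24475600-24475849, minus strand): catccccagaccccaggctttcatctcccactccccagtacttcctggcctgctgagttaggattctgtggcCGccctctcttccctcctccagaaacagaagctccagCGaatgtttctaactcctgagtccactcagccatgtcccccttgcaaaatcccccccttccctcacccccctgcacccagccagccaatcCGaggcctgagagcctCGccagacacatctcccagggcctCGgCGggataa
Lhx3 (chr2:26208250-26208499, minus strand): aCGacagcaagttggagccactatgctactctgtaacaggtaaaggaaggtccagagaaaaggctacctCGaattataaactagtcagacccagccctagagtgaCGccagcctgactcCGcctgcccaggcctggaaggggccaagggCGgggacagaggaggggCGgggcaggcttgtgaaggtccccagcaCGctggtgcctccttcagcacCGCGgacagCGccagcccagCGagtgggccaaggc

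The RefSeq table held 36 of the 48 genes. In the 250 bases before the start, these had a median of 16 CpGs against 6 for the 27025 genes listed, a GC content of 62% against 52.8%, and a ratio of observed to expected CpGs of 0.675 against 0.402. All 614 CpGs of the 36 sequences had a row at that position in the deposited table. The Nkx6-1 and Emx1 sequences hold 30 CpGs each, and that of Pax8 holds 6. For 26 of the 36 genes a listed start site lay within 1 kb of the gene end used, and for 3 (Nkx2-3, Lhx4 and Six6) the gene end used was the 3′ end.

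Within these 250 bases, Irx3 had 0 methylated calls in 10 of the 12 libraries, among them both clones in embryoid bodies, where a count of 0 allows a level of up to 1.00% in N5 and 2.52% in N9. The Emx1 sequence also gave 0% in both clones at t=0 and in embryoid bodies, with upper limits of 6.82% and 3.03% in the embryoid bodies, although its wider gene end rose. The Pdx1 sequence went from 0% in each clone at t=0 (upper limits 6.82% and 5.77%) to 3.90% in N5 and 5.77% in N9 in embryoid bodies. In the Pax5 sequence the level was 4.29% and 4.90% at t=0 and 15.7% and 7.89% in embryoid bodies. Pax8, with the fewest CpGs of the 8, stood at 41.8% and 73.5% at t=0 and at 57.5% and 64.7% in embryoid bodies. The Lhx3 sequence stood at 4.84% and 4.69% at t=0, far below the 27.6% of the whole Lhx3 gene end. These short windows had from 19 to 424 calls per library and were not tested.

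At t=0 most of the 48 gene ends had little methylation, with a median level over the set of 3.10% in N5, 3.84% in N9 and 2.48% in the wild type. Over all 20320 gene ends the medians were 10.1%, 10.1% and 9.21%, and over 10718 ends of other genes with at least 60 CpGs they were 3.45%, 3.58% and 3.09%. In both clones 23 members were under 5% and 39 were under 10%, and 7 stayed under 2% in all 12 libraries. The lowest were Lhx1, a gene of the head organizer and kidney, at 0.314% ± 0.288, the Iroquois genes Irx3 (0.397% ± 0.120) and Irx5 (0.464% ± 0.165), Nkx6-1, which acts in motor neuron progenitors and beta cells (0.551% ± 0.174), Six2, which maintains nephron progenitors (0.728% ± 0.193), and the midbrain gene En2 (0.758% ± 0.195). The first 4 of these lay at or near the mitochondrial level, so that a difference among them was not detectable.

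The highest levels at t=0 were those of Lhx4 (70.3% ± 2.35), Pax8 (39.8% ± 0.189), Meox1 (34.2% ± 1.77), Lhx3 (27.6% ± 0.814), Cdx1 (14.1% ± 4.802) and Dlx1 (11.4% ± 1.07). The first 4 are also the 4 members whose windows hold fewer than 60 CpGs, namely 28, 40, 41 and 33, against a median of 99.5 in the set and 65 over all ends. Across the 48 members, Spearman's rho between CpG number and level was -0.74, a description over genes that share the same libraries. Lhx4, a regulator of pituitary and motor neuron development, is a case of the window chosen: its gene end used is the 3′ end, while 143 CpGs around a RefSeq start site stood at 0.364% at t=0 and 0.809% in embryoid bodies (means of 2 clones).

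**Figure D1:**
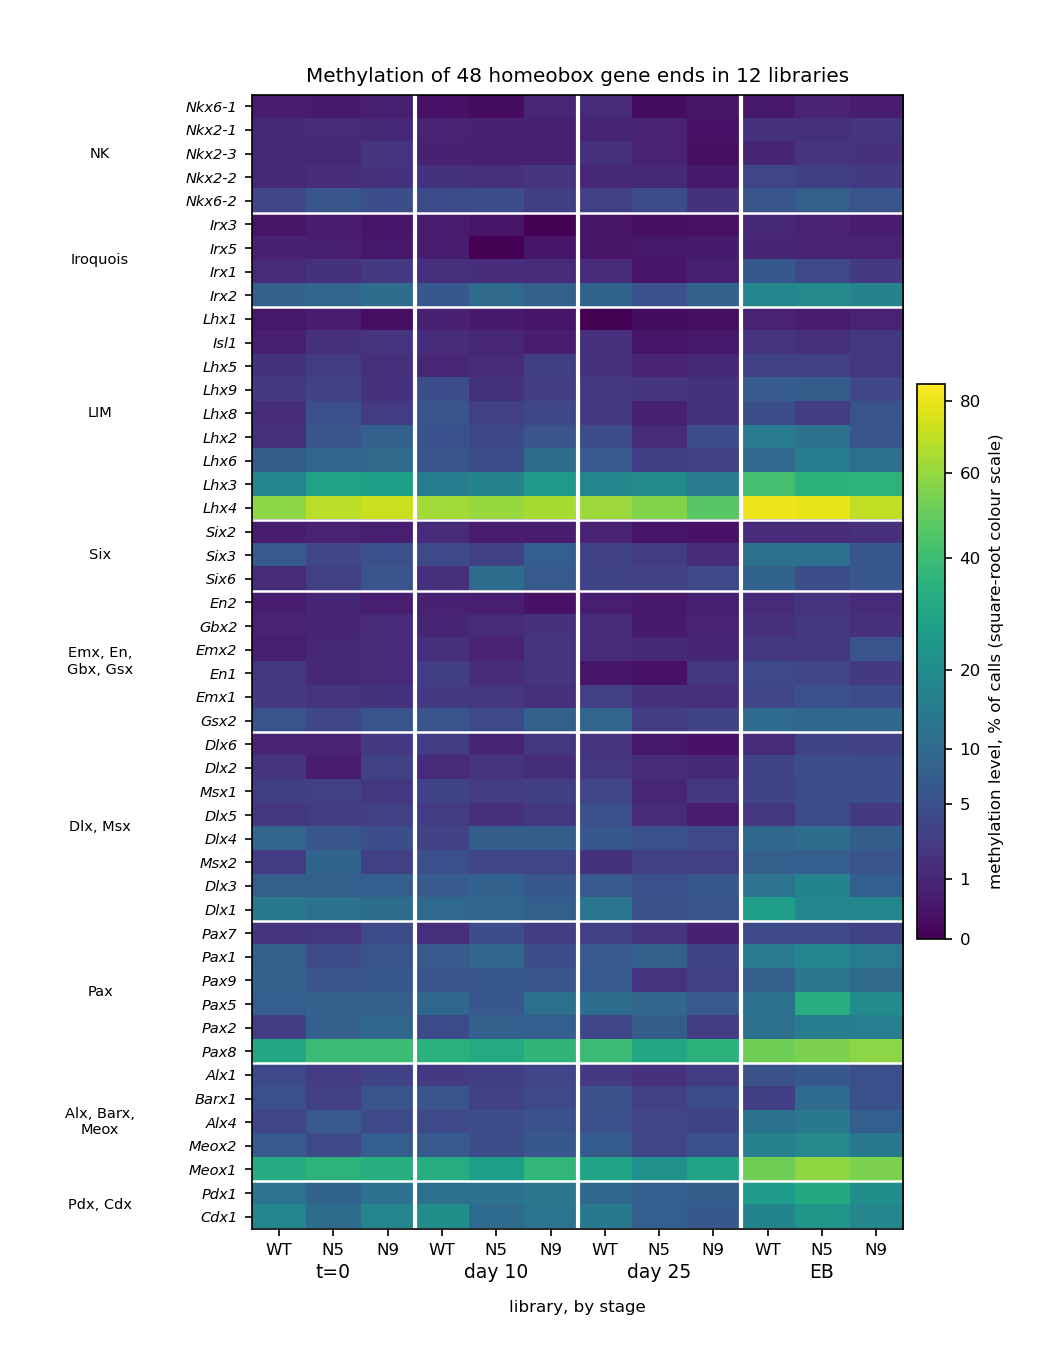
Methylation level of each of the 48 gene ends (rows, grouped by family) in the 12 libraries (columns, by stage), as a percentage of calls on a square-root colour scale. Most rows are dark, 4 genes (Lhx4, Lhx3, Pax8 and Meox1) are bright in every library, and in most rows the embryoid body columns are lighter than those of day 25.

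By family, the median clone level at t=0 was lowest in the genes of brain regions (1.17%), the Iroquois genes (1.30%) and the NK genes (1.48%). It was 3.84% in the LIM genes, 4.20% in the Dlx and Msx genes, 4.48% in Six2, Six3 and Six6, 5.39% in the genes of mesenchyme and somites, 7.07% in the Pax genes and 12.2% for Pdx1 and Cdx1. In embryoid bodies the same families stood at 3.55%, 2.02%, 1.83%, 5.58%, 5.81%, 5.62%, 10.5%, 15.7% and 23.5%.

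Day 10 against t=0 addresses the state of these genes 5 days after the doxycycline pulse ended. No member passed: 0 of 48 changed in the clones (edgeR, 2 at an unadjusted p under 0.05), with 0.197% of all gene ends called in either direction. By limma 0 passed, with 3 at an unadjusted p under 0.05. The median change was -0.248 percentage points, against -1.03 over all ends. The lowest adjusted p belonged to Isl1, a gene of motor neurons and the heart, which went from 1.59% to 0.978% in N5 and from 1.98% to 0.515% in N9 (0.415). Six6, an eye and pituitary gene, went from 3.07% to 10.5% in N5 and from 5.95% to 6.84% in N9 (0.418), and Nkx2-3 from 1.04% to 0.590% and from 1.908% to 0.668% (0.498). For Six6 and Nkx2-3 the gene end used is the 3′ end. Within 1 kb of its listed start site Six6 went from 5.79% to 3.9% in N5 and from 4.09% to 3.95% in N9. Nkx2-3 went there from 8.87% to 5.87% and from 7.63% to 4.35%.

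By day 25, 20 days after doxycycline, 12 of the 48 gene ends fell in the clones and none rose (edgeR, adjusted p under 0.05), against 40.2% of all ends that fell. The group was made of 6 LIM genes (Lhx2, Lhx3, Lhx4, Lhx6, Lhx8 and Isl1), 3 Dlx genes (Dlx1, Dlx5 and Dlx6), Pax9, Irx1 and Cdx1. In both clones 36 members were lower than at t=0, and the share of all ends was not counted in this way. The median change was -1.35 points in the set and -3.90 over all ends, or -0.85 and -0.98 in log2 odds. That scale depends less on the starting level, but conversion and calling errors limit how far the lowest levels can fall on it. The CpG-rich ends of other genes were close to the set: 26.5% of those 10718 fell, against 25% of the members, with a median change of -1.47 points and -0.88 in log2 odds. Of the 39 Hox ends 14 fell, of 71 other homeobox ends 16, of 60 other developmental regulators 9, and of 26 housekeeping ends 6.

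Lhx6, which acts in interneurons of the ventral forebrain, went from 9.02% to 2.89% in N5 and from 10.3% to 3.17% in N9 (adjusted p = 0.00403). In the wild type the t=0 level was 7.45% (95% Wilson interval 5.45 to 10.1) and the day 25 level 6.96% (5.04 to 9.52), above both clones at day 25. Isl1 went from 1.59% to 0.263% in N5 and from 1.98% to 0.336% in N9 (0.00456), the latter values within the range of the mitochondrial levels. In the wild type Isl1 had 0.575% (0.246 to 1.34) and 1.51% (0.768 to 2.96), so the wild-type value was the lower at t=0 and the higher at day 25.

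Cdx1, a regulator of posterior identity, went from 10.7% to 7.56% in N5 and from 17.5% to 6.39% in N9 (0.0285), and Dlx1, of forebrain interneurons, from 12.2% to 5.19% and from 10.7% to 5.98% (0.0205). Pax9, a gene of the sclerotome and teeth, went from 5.87% to 1.88% in N5 and from 6.40% to 3.04% in N9 (0.0127). In none of these 3 did the clone values of the stages overlap. That is no separate support, as they were picked for passing on the same values. At the CpG-poor ends of Lhx4 and Lhx3 the fall was from 70.3% ± 2.35 to 51.2% ± 6.25 (0.0148) and from 27.6% ± 0.814 to 16.6% ± 3.56 (0.0328). Lhx2 (adjusted p = 0.0256), Lhx8 (0.0217), Dlx5 (0.0164), Dlx6 (0.0342) and Irx1 (0.0117) fell by 1.34 to 3.96 points.

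These 12 calls rested on few libraries and on the window. With 500 bp in place of 1 kb on either side 3 members passed, and around the RefSeq start sites of 36 members, windows chosen after seeing the data, 5 passed. Where a gene had several listed starts, the one with the most CpGs around it was used. At its start site Lhx4 had 0.364% at t=0 and 0.359% at day 25 (mean of the clones). At theirs Dlx1 went from 1.58% to 0.5% and Pax9 from 1.05% to 0.802%. Without N5 at t=0, 8 members passed, leaving out N9 of that stage 4, without N5 at day 25 7 and without N9 at day 25 6. Lhx6 passed in each of these, whereas Cdx1 had an adjusted p of 0.0809 without N5 at day 25 and 0.272 without N9 at t=0, and Dlx1 had 0.121 and 0.0565. In the same order Dlx6 had 0.101 and 0.281, Irx1 0.12 and 0.0825, Pax9 0.15 and 0.0676, and Lhx2 0.472 and 0.128. Isl1 had 0.0766 without N5 at day 25, and Lhx8 0.205 without that library and 0.243 without N5 at t=0. When N9 at t=0 was left out, Lhx4, Lhx3 and Dlx5 had 0.0871, 0.0949 and 0.0774, and without N9 at day 25 they had 0.105, 0.201 and 0.12. In that last case Cdx1, Dlx1 and Dlx6 had 0.119, 0.0567 and 0.133, and without N5 at t=0 Lhx3, Dlx1 and Dlx5 had 0.116, 0.104 and 0.0502. With library medians of all ends set equal, limma called 0 members (2 at an unadjusted p under 0.05) and 0 of all ends.

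From day 25 to embryoid bodies the set gained methylation almost throughout: 46 of 48 gene ends rose in the clones and none fell (edgeR), against 74.6% of all ends that rose. The median change was 3.66 points in the set and 7.22 over all ends, or 1.71 and 1.53 in log2 odds. Of the CpG-rich ends of other genes 62.6% rose, by a median over all of them of 2.53 points. All 48 were higher in the embryoid bodies of both clones than at day 25 of the same clone. The share of all ends for which this held was not counted, so it is not a trait shown to be particular to the set. The 2 that did not pass were Irx5, with 0.334% and 0.458% before and 0.769% and 0.832% after (0.115), and Six6, at 3.34% and 4.07% and then 4.95% and 6.29% (0.168). The Six6 end used is the 3′ end, 5017 bp from the listed start site. Within 1 kb of that site Six6 went from 1.79% to 10.7% in N5 and from 2.79% to 5.66% in N9. Of the Hox ends 37 of 39 rose, of the other homeobox ends 60 of 71, of other developmental regulators 47 of 60, and of housekeeping ends 10 of 26.

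The largest rise in points was that of Meox1, a gene of somite formation, from 21.5% to 59.1% in N5 and from 29.1% to 54.6% in N9 (adjusted p = 2.23e-05). Its wild-type level went from 28.9% (95% interval 23.9 to 34.5) to 52.4% (46.7 to 58.0). Pax8, of thyroid and kidney, went from 30.2% to 54.6% in N5 and from 35.3% to 58.2% in N9 (4.03e-04). Lhx4 went from 55.6% to 79.6% and from 46.8% to 69.7% (6.48e-04), and Lhx3 from 19.2% to 35.3% and from 14.1% to 35.7% (4.88e-04). The 4 members that started highest were thus also the 4 with the largest gain in points.

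Next came genes that were lowly methylated at day 25. Pdx1, required for the pancreas, went from 7.63% to 31.4% in N5 and from 7.30% to 20.6% in N9 (3.71e-05), and Pax5, which commits cells to the B lineage, from 9.34% to 33.0% and from 7.03% to 19.9% (9.25e-05). For both, N5 ended well above N9. Cdx1 went from 7.56% to 23.7% in N5 and from 6.39% to 18.1% in N9 (2.31e-04), and Dlx1 from 5.19% to 17.8% and from 5.98% to 17.9% (8.29e-05). Meox2 and Irx2 rose by 11.95 and 11.0 points (8.5e-05 and 5.69e-04). Pax9, with the lowest adjusted p among members after Meox1 (2.24e-05), went from 1.88% to 13.2% in N5 and from 3.04% to 10.1% in N9. The gene ends used for Irx2, Dlx1 and Pax9 lay 4390, 1332 and 3778 bp from the listed start site. Within 1 kb of that site their clone means went from 0.286% to 1.95%, from 0.5% to 2.55% and from 0.802% to 2.73%. For Pdx1, Pax5 and Meox2 the gene end used was at the listed start site.

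At the other extreme, Lhx1 (0.656% ± 0.234), Irx3 (0.662% ± 0.154), Nkx6-1 (0.681% ± 0.208) and Irx5 (0.8004% ± 0.0449) ended under 1% in embryoid bodies, and the first 3 of them rose by 0.503 to 0.528 points with adjusted p of 0.0107, 0.0136 and 0.0226. The mitochondrial level of the clones moved from 0.526% in N5 and 0.156% in N9 at day 25 to 0.414% and 0.260% in embryoid bodies, a spread of the same order as these rises, and its part in them was not tested. Without N5 in embryoid bodies 30 of the 48 rises passed, the fewest when any 1 clone library was left out. With windows of 500 bp in place of 1 kb on either side 27 passed, and with library medians of all ends set equal limma called 0 members (6 at an unadjusted p under 0.05) and 0 of all ends.

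In the wild type, which has 1 library a stage, most members went the same way over this interval: 42 of 48 were higher in its embryoid bodies than at day 25, of any size, against 71.2% of all ends. The 6 that were lower were Nkx6-1, Nkx2-3, Dlx5, Dlx6, Msx1 and Barx1. Median changes were 2.77 points in the wild type, 4.25 in N5 and 2.89 in N9. Across the 48 members the changes of clones and wild type, which share no library, had Spearman's rho 0.745 and Pearson's r 0.818 as a description over genes. From t=0 to day 25, by contrast, 19 of 48 members were lower in the wild type, against 47% of all ends, with a median change of 0.115 points.

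**Figure D2:**
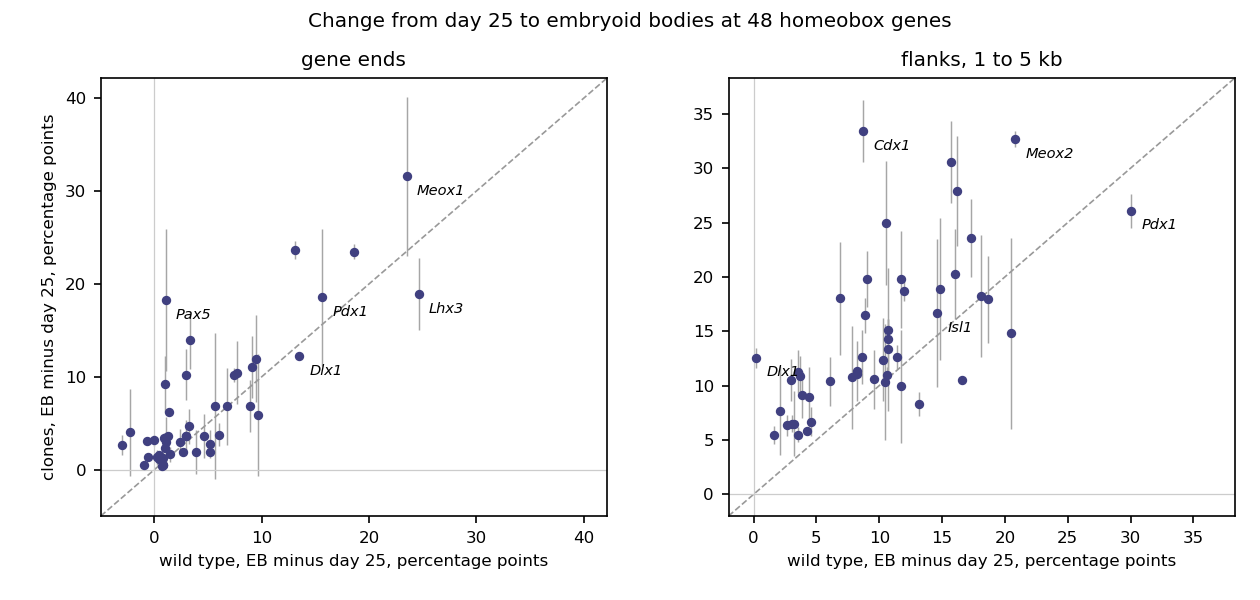
Change in methylation level from day 25 to embryoid bodies in the wild type (x axis, 1 library per stage) and in the clones (y axis, mean of N5 and N9 with the SD), in percentage points, for the gene ends (left) and flanks (right) of the 48 genes. The dashed line marks equal change; Meox1 is highest among the ends, Lhx3 and Dlx1 lie below the line, and Pax5 lies well above it.

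Set against t=0, the embryoid bodies of the clones were higher at 7 of the 48 gene ends and lower at none (edgeR), with 8.92% of all ends higher. They were Pax5, Pax1, Pdx1, Meox1, Meox2, Emx1 and Emx2. In both clones 36 members were higher than at t=0, and in the wild type 43 were. The shares of all ends were not counted in this way. The wild-type median over all ends tested rose too, from 9.21% at t=0 to 12.2% in embryoid bodies. The median change was 2.78 points in the set and 2.495 over all ends, or 0.81 and 0.53 in log2 odds. At the CpG-rich ends of other genes it was 0.819 points and 0.41 in log2 odds, and 5.55% were higher. This comparison shares its embryoid body libraries with that from day 25 and its t=0 libraries with those above. Of the Hox ends 13 of 39 were higher, of the other homeobox ends 18 of 71, of other developmental regulators 13 of 60, and of housekeeping ends 0 of 26 by edgeR.

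Pax5 (4, 44709694 to 44711694) went through 8.33%, 6.28%, 9.34% and 33.0% in N5 and through 7.69%, 11.3%, 7.03% and 19.9% in N9 over the 4 stages (adjusted p = 0.00309 for embryoid bodies against t=0). Its wild-type levels were 7.62%, 9.70%, 10.8% and 11.8% (95% interval 8.60 to 16.1 for the last), all below the clones' embryoid bodies. Pax1 (2, 147360930 to 147362930), a gene of the sclerotome and thymus, had 4.62% and 5.68% at t=0 and 17.5% and 14.2% in embryoid bodies (0.0101), with 8.10% and 14.5% in the wild type. Between these stages it stood at 9.07% and 4.83% at day 10 and at 7.92% and 3.48% at day 25. Within 1 kb of its listed start site, 3064 bp from the gene end used, the clones had 4.26% and 3.56% at t=0. In embryoid bodies they had 9.73% and 7.62% there.

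Pdx1 (5, 147269097 to 147271097) had 8.80% and 12.0% at t=0 and 31.4% and 20.6% in embryoid bodies (0.0108), and in the wild type 12.3% (9.84 to 15.3) and 25.1% (21.1 to 29.5). The clones lay on either side of the wild type in embryoid bodies. Meox2 (12, 37107540 to 37109540), which acts in somites and limb muscle, had 4.10% and 7.58% at t=0 and 18.9% and 13.9% in embryoid bodies (0.0119), and in the wild type 7.02% and 16.8%. Meox1 (11, 101893354 to 101895354) had 35.5% and 33.0% at t=0 and 59.1% and 54.6% in embryoid bodies (0.0154).

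The 2 cortical genes changed by less. Emx1 (6, 85186931 to 85188931) went from 1.94% to 5.47% in N5 and from 1.81% to 4.46% in N9 (0.0317), and the wild type from 2.39% (1.65 to 3.46) to 3.89% (2.88 to 5.24), intervals that overlap. Emx2 (19, 59457690 to 59459690) went from 1.03% to 2.13% in N5 and from 1.30% to 5.81% in N9 (0.0392), so that most of its mean change came from N9, and without N9 in embryoid bodies its adjusted p was 0.469.

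The calls against t=0 depended on N5 and on the window. With 500 bp on either side 3 members passed and with 2 kb 17, and 11 of 36 passed around RefSeq start sites. Without N5 at t=0, 1 member passed (Pax5), and without N5 in embryoid bodies 1 passed (Emx2). In the first case the adjusted p of the 6 others ranged from 0.0698 for Meox1 to 0.187 for Emx2, and in the second from 0.0809 for Pax5 to 0.162 for Emx1. Without N9 at t=0 Meox1, Emx2 and Emx1 had 0.0925, 0.116 and 0.143, and without N9 in embryoid bodies Emx1 had 0.0716. Limma on logit values called 0 members (17 at an unadjusted p under 0.05) and 1 end in all, and with library medians set equal it called 0 members (6 unadjusted).

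**Figure D3:**
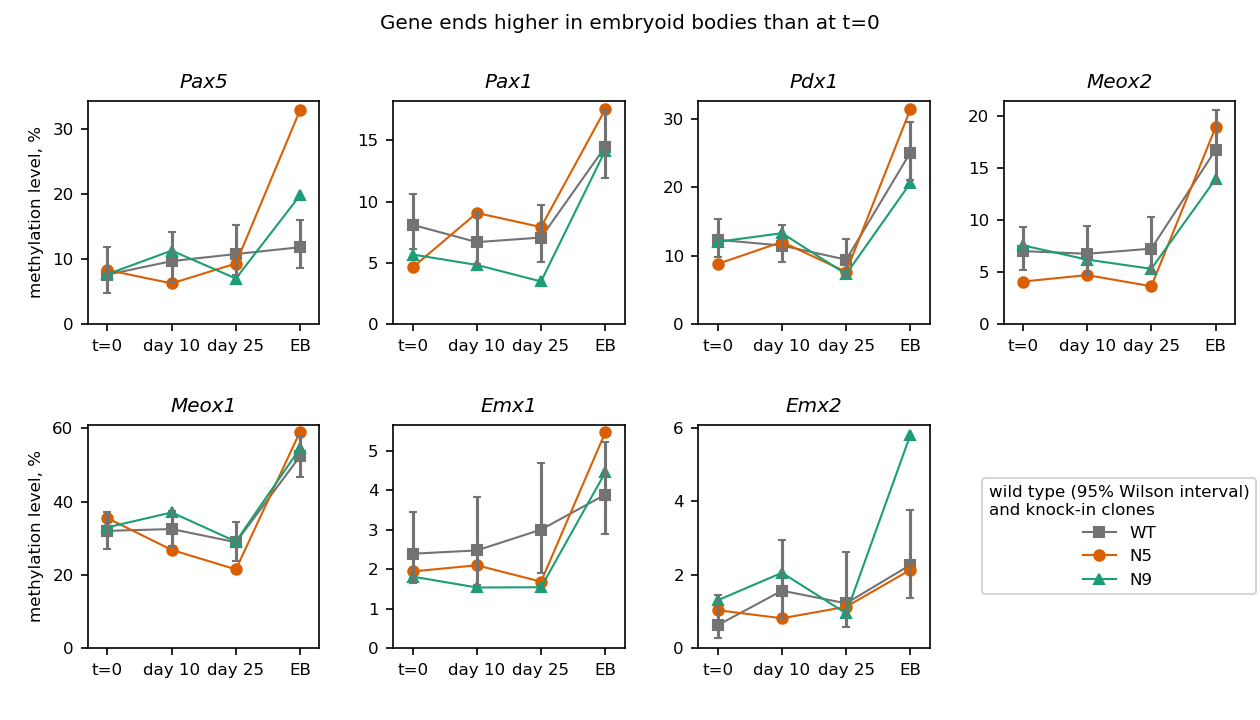
Methylation level in percent (y axis, a scale per gene from 0) at the 4 stages (x axis) for the 7 gene ends that were higher in the clones' embryoid bodies than at t=0, with 1 point per library and, for the wild type, the 95% Wilson interval. In Pax5 the wild type stays near 12% in embryoid bodies while the clones reach 33.0% and 19.9%, and in Emx2 N9 alone lies above the wild-type interval.

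Between clones and wild type at the same stage few members differed. At t=0 0 of 48 passed (edgeR, 5 at an unadjusted p under 0.05, limma 0 with 4), with 0.536% of all ends called in either direction. The lowest adjusted p were those of Pax2 (0.258), at 8.02% in N5, 9.54% in N9 and 2.79% in the wild type, Six6 (0.341), at 3.07%, 5.95% and 1.27%, and Lhx2 (0.361), at 5.92%, 8.00% and 1.65%. At day 10 0 of 48 passed (edgeR, 3 unadjusted, limma 0 with 5), with 0.0148% of all ends called. Here Six6 had 10.5%, 6.84% and 1.62% (0.186), and Dlx4 and Cdx1 had adjusted p of 0.624 and 0.656. The Six6 end used is the 3′ end. Within 1 kb of its listed start site Six6 had 5.79% in N5, 4.09% in N9 and 5.78% in the wild type at t=0. At day 10 Six6 had 3.9%, 3.95% and 2.91% there.

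At day 25, 3 of 48 members were lower in the clones than in the wild type (edgeR), against 10.2% of all ends. Dlx5, a gene of the jaw and limb skeleton, stood at 1.19% in N5 and 0.552% in N9 against 5.11% (3.37 to 7.68) in the wild type (adjusted p = 0.0133). Nkx6-1 stood at 0.0877% and 0.234% against 1.27% (0.690 to 2.32), with an adjusted p of 0.0342. Gsx2, which patterns the ventral telencephalon, stood at 2.86% and 3.53% against 9.07% (6.93 to 11.8), with an adjusted p of 0.0464. The wild type had the lowest depth of all libraries at this stage. Without N9 at day 25 none passed (Dlx5 0.0758, Nkx6-1 0.0505, Gsx2 0.0893), and without N5 at day 25 Dlx5 alone did, with 0.213 for Nkx6-1 and 0.176 for Gsx2. Gsx2 had 0.0531 and 0.053 without N5 or N9 in embryoid bodies.

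In embryoid bodies 0 of 48 members differed between clones and wild type (edgeR, 2 at an unadjusted p under 0.05, limma 0 with 2), with 0.0689% of all ends called. The median difference was 0.01 in log2 odds. Pax5 had the lowest adjusted p, 0.377, with 33.0% and 19.9% against 11.8%. It was followed by Barx1, a stomach and tooth gene, at 10.4% and 5.00% against 2.89% (0.46), and Irx1, at 4.17% and 2.30% against 6.47% (0.584).

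Whether the clones changed by more than the wild type was tested as a difference of changes. From t=0 to day 25 0 of 48 members passed (edgeR, 8 at an unadjusted p under 0.05, limma 0 with 9), with 2.11% of all ends called lower. Dlx5 had the lowest adjusted p (0.0581), followed by Isl1 (0.0588) and Lhx2 (0.098). From day 25 to embryoid bodies 2 of 48 passed, with 6.07% of all ends called higher: Dlx5 and its neighbour Dlx6. Dlx5 went from 1.19% to 4.58% in N5 and from 0.552% to 2.41% in N9, and from 5.11% (3.37 to 7.68) to 2.12% (1.29 to 3.46) in the wild type (adjusted p = 0.0257). Dlx6 went from 0.337% to 3.43% in N5 and from 0.200% to 3.299% in N9, and from 2.02% (1.02 to 3.92) to 1.37% (0.665 to 2.80) in the wild type (0.0398).

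Both clones thus rose where the wild-type library was lower, though its intervals at day 25 and in embryoid bodies overlapped at each gene. The gene ends of Dlx5 and Dlx6 (6, 6881068 to 6883068 and 6862334 to 6864334) lie under 20 kb apart, and their windows do not overlap. Without N5 in embryoid bodies or without N9 at day 25 neither passed (Dlx5 0.0978 and 0.0791, Dlx6 0.0726 and 0.0972). Dlx6 had 0.0752 without N5 at day 25 and 0.0622 without N9 in embryoid bodies. Without the day 10 library of either clone 4 passed. Limma called 0 (10 at an unadjusted p under 0.05), and 0 passed with windows at RefSeq start sites, where neither gene is listed.

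The low methylation of these genes reached well beyond the 1 kb windows. In the flanks, from 1 to 5 kb on both sides of the gene end, the median level at t=0 was 14.4% in N5, 14.8% in N9 and 14.1% in the wild type, against 64.0%, 64.1% and 59.2% over all ends. Flanks of other genes with CpG-rich ends stood at 58.5%, 58.7% and 52.9%, and those of Hox genes at 15.6%, 14.7% and 14.7%. In both clones 31 member flanks were under 20% at t=0 and 2, those of Cdx1 and Lhx4, were over 50%. The lowest were those of the thyroid and lung gene Nkx2-1 (5.74% and 6.20%), of Lhx5 and of Nkx6-1 (7.13% and 6.88%). Gene bodies of the set had medians of 16.6% in N5 and 18.2% in N9, against 69.3% and 69.4% over all genes.

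Medians of bins of 500 bp around the gene end gave the same shape. In the members the bin centred 1.25 kb into the gene had a t=0 level of 2.7% in N5 and 4.0% in N9, and the bin at 5.25 kb one of 24.5% and 24.2%, while for CpG-rich ends of all other genes these bins were at 26.7% and 27.5%, and 71.4% and 71.9%. On the outer side the members reached 50% and 53.8% at 5.25 kb from the end and 72.7% and 70.0% at 9.75 kb. Not every member had enough calls in each bin: 38 or 39 of the 48 did at 5.25 kb and 39 at 9.75 kb.

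**Figure D4:**
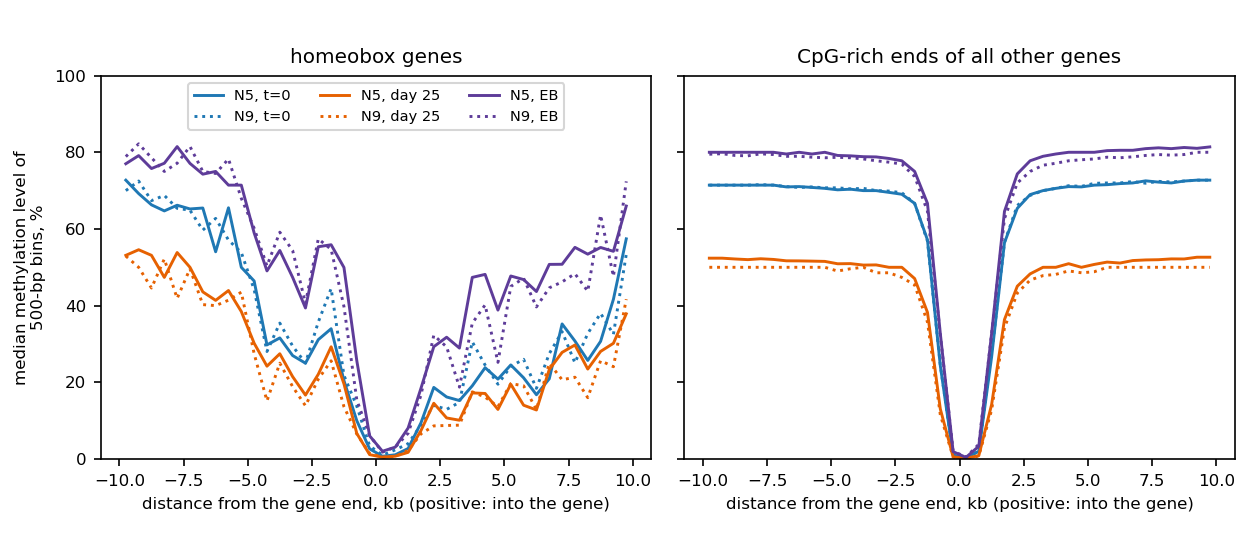
Median methylation level in percent (y axis) of bins of 500 bp by distance from the gene end in kb (x axis, positive into the gene), in clones N5 (solid) and N9 (dotted) at t=0, day 25 and in embryoid bodies (EB), for the 48 homeobox genes (left) and CpG-rich ends of all other genes (right). The trough is broader on the left, mostly on the side of the gene, and outside it the embryoid body lines lie highest in both panels.

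In the flanks 30 of 48 members fell from t=0 to day 25 in the clones (edgeR), against 94.6% of all flanks, with a median of -4.18 points against -16.9, or -0.61 against -1.07 in log2 odds. The largest falls were those of Cdx1 (from 54.1% ± 1.45 to 33.5% ± 1.12, adjusted p 2e-06), Lhx4 and Meox1. The flanks of Isl1 and Emx2 were the 2 that were higher at day 25 than at t=0 in the clone mean, by 2.99 and 1.28 points (0.239 and 0.524).

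From day 25 to embryoid bodies all 48 member flanks rose in the clones (edgeR, highest adjusted p 0.00136), against 98.8% of all flanks. The median rise was 12.5 points in the set and 24.1 over all ends, or 1.34 and 1.58 in log2 odds. In the wild type all 48 were higher too, by a median of 9.94 points. The Pdx1 flanks went from 24.5% to 49.5% in N5, from 21.2% to 48.4% in N9 and from 21.0% to 51.0% in the wild type. Those of Meox2 went from 26.3% to 59.5%, from 32.0% to 64.2% and from 39.1% to 59.9%.

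Against t=0 the flanks of 39 of the 48 members were higher in the clones' embryoid bodies (edgeR), with 42.9% of all flanks higher. The median change was 7.98 points in the set and 6.83 over all ends, or 0.78 and 0.50 in log2 odds. Of Hox flanks 33 of 39 were higher, of other homeobox flanks 54 of 71, of other developmental regulators 49 of 60, of genes of the Polycomb machinery 6 of 32 and of housekeeping genes 7 of 26. The set was not tested against other genes. Pdx1 changed most, from 27.3% to 49.5% in N5 and from 23.7% to 48.4% in N9 (adjusted p = 2.8e-05). Isl1 went from 17.0% to 42.3% and from 20.2% to 34.2% (9.8e-05), and Emx2 from 17.7% to 38.5% and from 15.6% to 33.3% (6.6e-05). The smallest changes, those of Pax7 (0.514) and Dlx2 (0.536), did not pass. Between clones and wild type in embryoid bodies 0 of 48 flanks passed (edgeR, 3 at an unadjusted p under 0.05, limma 0), with 0.6% of all flanks called, and the lowest adjusted p was that of Dlx1 (0.139).

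The stretch of consecutive 500 bp bins under 20% around the gene end had a median width in the set of 3.5 kb in N5 and 3.75 kb in N9 at t=0, 3.25 kb in both at day 10, 4 kb in both at day 25 and 2.5 kb in both in embryoid bodies. In the wild type the widths were 3.5, 3.5, 3 and 2.5 kb in that order. The width depended on the limit: with 10% in place of 20% the mean of the clones' medians was 2.5, 2.25, 2.88 and 1.75 kb in the order of the stages, and with 30% it was 4.88, 4.25, 5.38 and 3 kb. Day 25 had the widest and embryoid bodies the narrowest mean at each of these limits, while with 30% N5 had 5 kb both at t=0 and at day 25. The wild type had 2.5, 2.25, 2.5 and 2 kb with 10%, and 5.25, 5.25, 4.5 and 3.5 kb with 30%. From day 25 to embryoid bodies the stretch became narrower in both clones at 33 members and wider in both at 0, and in the wild type it was narrower at 29 and wider at 5. At CpG-rich ends of other genes the median was 2 kb at t=0 in all 3 lines, and 1.5 kb in the clones' and 2 kb in the wild-type embryoid bodies. Related classes were closer to the set in the clones. Hox ends had 3 kb at t=0, 3.5 kb (N5) and 4 kb (N9) at day 25 and 2 kb in embryoid bodies. Other homeobox ends had 3, 4 and 2 kb in both clones at these stages. Ends of other developmental regulators had 3.5 and 4 kb in both, then 2.75 kb in N5 and 2.5 kb in N9. Six3, a forebrain and eye gene, had a stretch of 14 kb in N5 and 14.5 kb in N9 at day 25 and of 6.5 and 7 kb in embryoid bodies, and Nkx2-2, of the ventral neural tube, one of 13.5 and 15.5 kb and then 2.5 and 3 kb. A single bin above the limit ends a stretch, so single genes can jump between libraries: at t=0 Nkx2-2 had 3 kb in N5 and 13.5 kb in N9, and from day 25 to embryoid bodies Lhx5 went from 10.5 to 2.5 kb in N5 but stayed at 3 kb in N9, having been at 10.5 kb there at t=0.

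**Figure D5:**
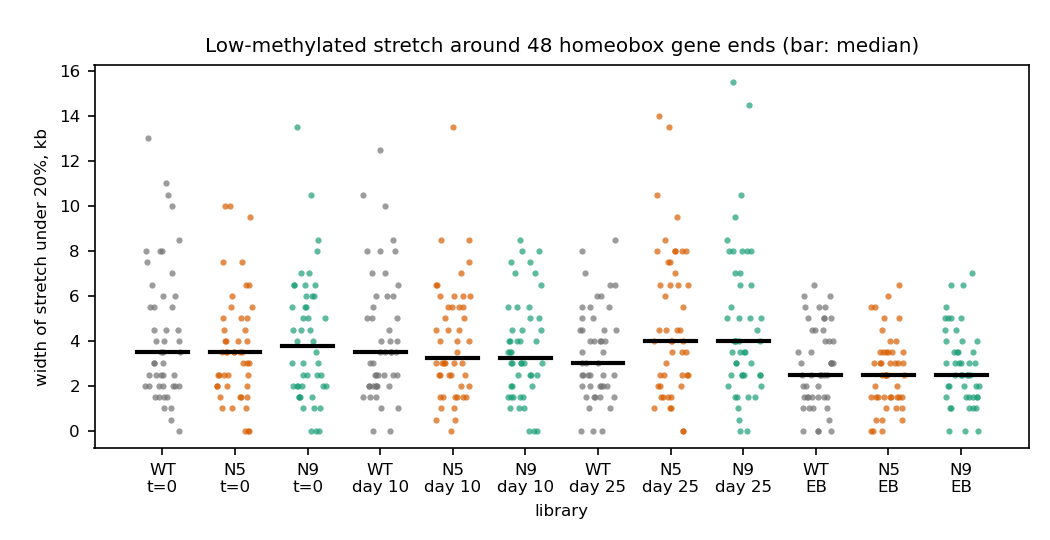
Width in kb (y axis) of the stretch of bins under 20% methylation around each of the 48 gene ends in each library (x axis, by stage), with 1 point per gene, spread sideways for visibility, and a bar at the median. The median is 4 kb in both clones at day 25 and 2.5 kb in all 3 embryoid body libraries.

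Genes of the Polycomb machinery, which acts at promoters of this kind, were followed as a separate list of 32. From t=0 to day 25, 7 of them fell at the gene end, 21 rose from day 25 to embryoid bodies, and 2 were higher in embryoid bodies than at t=0 (edgeR). These shares of 21.9%, 65.6% and 6.25% lie below the 40.2%, 74.6% and 8.92% of all ends. At the CpG-rich ends of other genes the shares were 26.5%, 62.6% and 5.55%, close to those of the list. The 2 Polycomb genes that passed against t=0 encode accessory subunits of the complex that places H3K27me3. Mtf2 went from 0.636% ± 0.338 to 3.77% ± 0.540 (adjusted p = 0.0118) and Phf19 from 1.64% ± 0.094 to 5.68% ± 1.79 (0.0292).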

How the data were processed

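The libraries were whole-genome oxidative bisulfite libraries of mouse iPS cells and of embryoid bodies. For each CpG the deposited table holds 2 counts per library, methylated calls and total calls. Per the submitters' processing notes, BWA, Picard 1.91 and mm10 were used. For the program that called methylation, the name is not given in the sources used. Incomplete conversion adds methylated calls; it was not measured beyond the mitochondrial level.

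The 24 samples are 2 lanes of each of 12 libraries. The 2 wild-type columns of a stage differed by no more than sampling noise (variance ratio 0.946 to 0.952 at single CpGs, against 1.056 to 1.102 between clones), so they were summed and counted as 1 sample. Clones N5 and N9 recur at each stage, but their differences at gene ends did not correlate between stages (r from -0.053 to 0.011).

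Counts were summed within 1 kb of the CpG-denser gene end (RefSeq table positions; no exon models were used) and, for flanks, from 1 to 5 kb on both sides. Ends with under 5 CpGs, or under 10 calls in any library, were left out. Differences were tested with edgeR 4.0.16 (quasi-likelihood F test on methylated and unmethylated counts, 8 groups, 4 residual degrees of freedom, R 4.3.3), with Benjamini-Hochberg adjustment over all ends within each of 10 comparisons of ends and 4 of flanks, and a threshold of 0.05. Limma 3.58.1 on logit values was an alternative, as were other windows, minimums, blocks and left-out libraries. Wilson intervals (95%) and upper limits for 0 methylated calls (3 calls of the total) cover counting error only. Summaries used Python 3.11.15 with pandas 2.3.3.

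All 48 members may be named; given in full are those that passed (up to the 10 with the largest change in each direction), the 3 with the lowest p where none passed, and the 6 highest and 6 lowest at t=0, and of other lists the 2 with the lowest p. Genes whose values are given beyond this were chosen after their values were seen. The members and lists were chosen with earlier results of these data known.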

Additional observations from a re-analysis of the deposited data

Results flagged for a closer look

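Dlx5 and Dlx6 stood out because the change from day 25 to embryoid bodies differed between clones and wild type by the interaction term of the edgeR fit. The clones' change exceeded that of the wild type by 5.62 percentage points at Dlx5 (adjusted p = 0.0257) and by 3.74 at Dlx6 (0.0398), with both clones higher and the wild-type library lower in embryoid bodies than at day 25. The wild type has 1 library per stage, and the value of Dlx5 in it at day 25, 5.11%, was the highest of all 12 libraries.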

How the results depend on the processing

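With windows of 500 bp on either side, 3 members were lower at day 25 than at t=0, 27 rose from day 25 to embryoid bodies, 3 were higher in embryoid bodies than at t=0, 1 differed between clones and wild type at day 25 and 1 in the interaction to embryoid bodies. With windows of 2 kb, 17 were higher in embryoid bodies than at t=0, 8 differed from wild type at day 25, and 1 passed in each interaction. Limma on logit values called 0 for embryoid bodies against t=0, 1 against wild type at day 25 and 0 in the interaction to embryoid bodies. After centring each library, limma called 0 in all 10 comparisons; the members' median change was then 0.43 in log2 odds from day 25 to embryoid bodies, 0.34 against t=0 and -0.07 from t=0 to day 25. With CpGs called in every library, 5 members differed from wild type at day 25 and 4 passed in the interaction to embryoid bodies. With both gene ends tested, 6 differed from wild type at day 25 and 2 passed in the interaction to day 25. At RefSeq start sites of 36 members, windows chosen after seeing the data, 5 were lower at day 25. In these windows 11 were higher in embryoid bodies than at t=0 and 0 passed in the interaction to embryoid bodies. For Lhx2 the start used, the listed one with the most CpGs (position 38351308), was not the one 10 bp from the gene end (38339281). At that other start Lhx2 changed direction from t=0 to day 25 (edgeR, adjusted p = 0.893), so this does not set its promoter against its gene end. The median width of the low-methylated stretch moved with the limit at every stage, in embryoid bodies of the clones from 2.5 kb at 20% to 1.75 kb at 10% and 3 kb at 30%. The cause of these differences was not tested.

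With the clones as a replicate block, 0 members passed at day 10, 12 at day 25, 46 from day 25 to embryoid bodies, 7 against t=0, and 0 and 2 in the interactions; in the flanks 31, 48 and 36 passed, and the block changed no call at the gene ends named. A flow cell term with the block gave 2 and 4 in the interactions. Leaving out 1 library at a time gave 4 to 12 members lower at day 25, 30 to 46 higher from day 25 to embryoid bodies, 1 to 9 against t=0, 0 to 3 against wild type at day 25, and 0 to 2 and 0 to 4 in the interactions. In the flanks it gave 21 to 33, 48 to 48 and 27 to 40 in the same order, and 0 to 0 against wild type in embryoid bodies; the other comparisons of ends stayed at 0. Over the alternatives run, 313 adjusted p of named genes kept their direction and side of the threshold, 128 no longer passed and 1 reversed. Depth limits the lowest genes: the gene end of Irx3 in N9 at day 10 had 0 methylated calls, which allows up to 0.314%.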
